A study of Rattus norvegicus with 6 samples.

Results

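The core cardiac transcription factors are the DNA-binding proteins that together set the gene programme of heart muscle cells. The 10 genes described here were chosen by name: Gata4, Gata6, Nkx2-5, Tbx5, Tbx20, Hand2, Mef2a, Mef2c, Mef2d and Srf. Their signal was read on arrays of neonatal rat ventricular cardiomyocytes (NRVCs) cultured without and with C3a. A probe counted as belonging to a gene when its accession led to that gene in the rat RefSeq table, and the brightest probe stood for the gene. This gave a probe for 9 of the 10 genes, among 16569 gene symbols with a probe. No probe led to Mef2c by this route, so Mef2c was not analysed here.

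NRVCs are primary cells from the ventricles of Sprague-Dawley rats that were 1 to 2 days old, and each preparation pooled the hearts of 8 to 10 rats. The 3 control cultures received control medium. The 3 C3a cultures received 0.5 µg/ml of recombinant C3a, the fragment released from complement C3, for 12 h. Both groups were cells of the same kind plated in serum-free medium by the sample records, while by the methods C3a was added once the cells had been held in 1% serum for 1 h. The comparison asks whether C3a acting on cardiomyocytes changes cardiac gene expression. The records do not say whether the cultures of a group came from separate preparations, so the p-values measure the spread between these samples, which may be technical.

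GATA4 and GATA6 are zinc finger proteins, NKX2-5 is a homeodomain protein, TBX5 and TBX20 are T-box proteins and HAND2 is a basic helix-loop-helix protein. The MEF2 proteins and SRF belong to the MADS box family. These proteins bind one another and the same enhancers, and many of their target genes encode sarcomere proteins and the natriuretic peptides. Several are also made in fibroblasts or other cells of the heart, so their signal in a culture need not come from cardiomyocytes alone.

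The factors are known to act on each other's genes, and the stretches just upstream of their start sites were read for their motifs. Motifs elsewhere in or around the genes were not looked for. A stretch of 250 bases before the start site was available in the RefSeq promoter table for 8 of the 10 genes, Gata4 and Mef2c being the others. Both strands were searched for the CArG box of SRF, the MEF2 site, a GATA motif (GATAA), an NKX motif (AAGTG), a T-box motif (AGGTGT) and the E-box (CANNTG) that HAND proteins and other helix-loop-helix proteins bind. Of the 4 stretches printed, Srf is shown for its CArG boxes, Mef2a for its MEF2 site, Hand2 for the most motifs of the 8, and Tbx20 because its signal differed most between the cultures. Capitals mark the matches.
Srf (GRCr8 chr9:21923826-21924075, plus strand): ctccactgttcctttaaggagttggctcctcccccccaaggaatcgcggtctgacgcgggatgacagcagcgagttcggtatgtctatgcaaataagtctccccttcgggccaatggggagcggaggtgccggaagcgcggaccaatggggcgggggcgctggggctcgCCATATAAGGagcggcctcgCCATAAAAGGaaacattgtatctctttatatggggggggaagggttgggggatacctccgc
Mef2a (GRCr8 chr1:130392163-130392412, minus strand): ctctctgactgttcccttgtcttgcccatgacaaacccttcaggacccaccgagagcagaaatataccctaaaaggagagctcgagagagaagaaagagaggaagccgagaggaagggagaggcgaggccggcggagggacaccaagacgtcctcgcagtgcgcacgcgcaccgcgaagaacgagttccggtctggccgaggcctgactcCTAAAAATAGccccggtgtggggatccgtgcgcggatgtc
Hand2 (GRCr8 chr16:37931489-37931738, minus strand): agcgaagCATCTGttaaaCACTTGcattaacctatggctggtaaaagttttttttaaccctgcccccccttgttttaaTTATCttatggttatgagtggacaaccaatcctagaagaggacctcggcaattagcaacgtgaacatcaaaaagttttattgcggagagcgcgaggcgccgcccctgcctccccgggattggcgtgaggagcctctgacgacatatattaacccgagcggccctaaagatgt
Tbx20 (GRCr8 chr8:31534010-31534259, minus strand): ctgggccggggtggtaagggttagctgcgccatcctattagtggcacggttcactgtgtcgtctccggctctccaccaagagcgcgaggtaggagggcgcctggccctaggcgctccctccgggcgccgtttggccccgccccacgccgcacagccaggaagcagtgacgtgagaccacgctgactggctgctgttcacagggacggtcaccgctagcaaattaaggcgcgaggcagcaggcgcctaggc
The Srf stretch held 2 CArG boxes, whose first bases lay 81 and 61 bases before the start site, while 1.5% of the 33469 stretches of this length in the table held any. The Mef2a stretch held 1 MEF2 site, 40 bases before the start site, against 2.96% of all stretches. The Hand2 stretch held 1 GATA motif, 1 NKX motif and 2 E-boxes, and the NKX motif lay within an E-box. Such matches were common, since 23.5% of all stretches held the GATA motif, 40.6% the NKX motif, 65.5% an E-box and 11.6% the T-box motif. The Nkx2-5 stretch held 1 E-box, and the Tbx5 stretch held 1 GATA motif and 1 E-box. Tbx20, Gata6 and Mef2d had none of the 6 motifs in these bases. A match is a string of letters and was not tested for binding.

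No factor passed the adjusted threshold for a difference between C3a and control cultures. Tbx20, which encodes a T-box protein needed for heart muscle growth, had the largest difference, with a mean log2 fold change of 0.49, or 1.40-fold. The differences of the other 8 factors lay between -0.064 for Gata6 and 0.17 for Hand2. In limma, a linear model that pools information on spread over probes, 0 of 9 factors had an adjusted p under 0.05, as did 0% of the 23438 probes kept. An unadjusted p under 0.05 was found for 1 of 9, which was higher, beside 5.83% of the probes (3.33% higher and 2.5% lower). The balance of these probes turned with the settings, from 780 higher and 587 lower to 565 and 725 with the percentile taken over detected probes, to 366 and 645 among probes well above background on each array, to 357 and 677 with dim probes kept, and to 41 and 2558 without normalization. For none of the 9 did the 3 C3a values and the 3 control values lie apart, beside 12.4% of the probes (7.96% with C3a above and 4.49% with C3a below). The log2 fold change was above 0 for 7 of 9 factors and for 62.2% of the probes. The median was 0.093 over the factors and 0.048 over the probes. That factor median is the value of Tbx5, a dim probe that was kept through the C3a cultures alone. Probes were kept when well above background on all 3 arrays of a condition, which 23425 met with C3a and 17519 in the controls. The shares above 0 and the medians are therefore a description only.

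Signals below are log2 of the background-corrected intensity after subtraction of the 75th percentile on that array, where 0 equals that percentile. A difference of 1 is then a doubling. The level of one probe cannot be set against that of another on these arrays, so each gene is compared between cultures only. All 6 arrays read the 9 probes well above background, but for Tbx5 on control replicate 1. All arrays shared 1 slide on which controls and C3a cultures took opposite sides, so position and treatment cannot be told apart. Local background was brighter on control replicate 1 (median 47 units) than elsewhere (23 or 24), and 38.6% of its probes were well above background, against 53.7% to 57.3%. The number of arrays limits the precision.

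**Figure D1:**
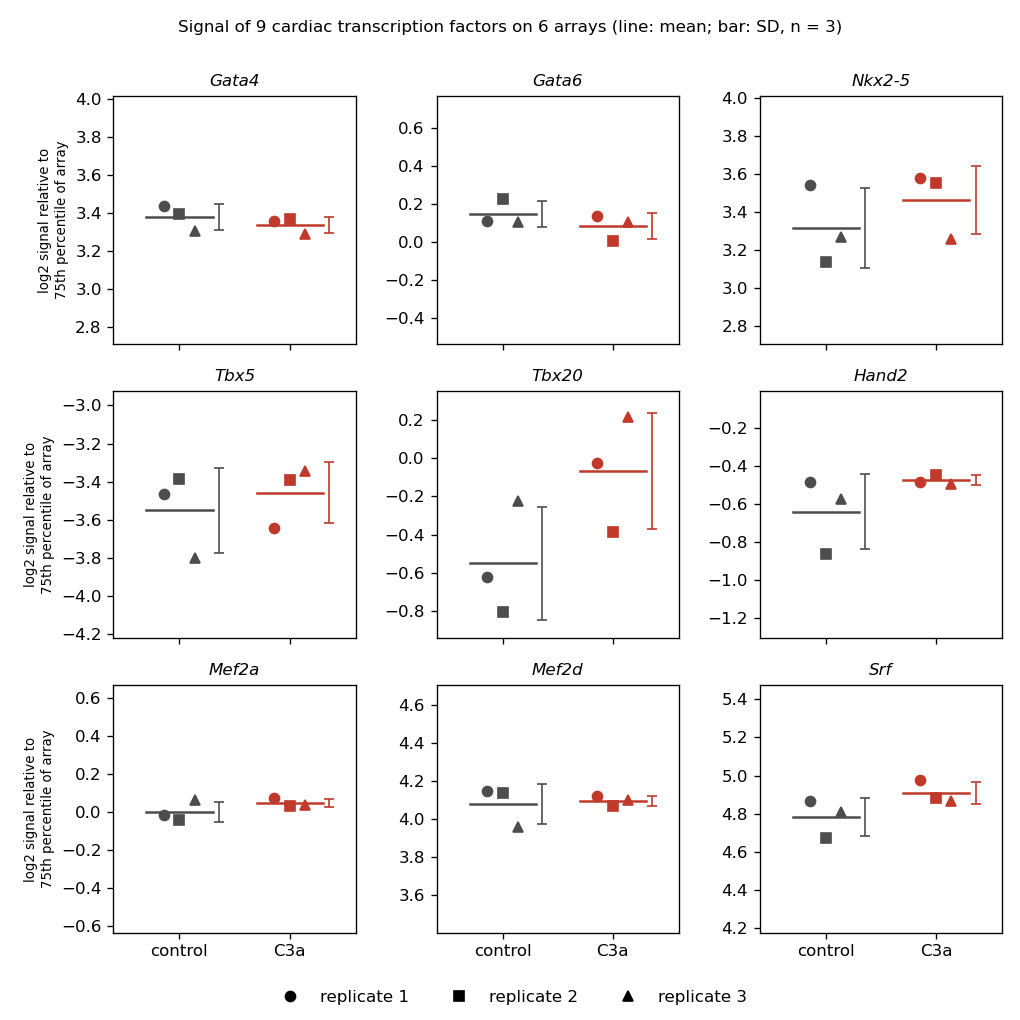
Log2 signal above the array's 75th percentile (y axis, each panel spanning the same height) for 9 factors in 3 control and 3 C3a cultures (x axis); symbols give the replicate number, lines the mean and bars the SD. The values of the groups overlap in every panel, and the means lie furthest apart for Tbx20.

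GATA4, a zinc finger factor that drives the natriuretic peptide and sarcomere genes, was steady across the arrays. Gata4 signal was 3.44, 3.39 and 3.30 in the control cultures and 3.36, 3.37 and 3.29 in the C3a cultures. The C3a values lay within or just under the control range. The mean was 3.38 ± 0.068 (SD, n = 3) without and 3.34 ± 0.043 (SD, n = 3) with C3a, a log2 fold change of -0.041 with a 95% interval from -0.26 to 0.17 (adjusted p = 0.899, limma).

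GATA6, which shares DNA sites and partly its duties with GATA4, was as steady. Gata6 signal was 0.11, 0.22 and 0.10 in the control cultures and 0.14, 0.0059 and 0.10 in the C3a cultures. Control replicate 2 was the highest and C3a replicate 2 the lowest of the 6. Gata6 gave a log2 fold change of -0.064, with an interval from -0.28 to 0.16 (adjusted p = 0.845, limma). The residual SD of both GATA genes was among the lowest 10% of kept probes, at percentile 4.98 for Gata4 and 8.58 for Gata6.

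NKX2-5 is a homeodomain factor of the early heart that stays on in adult cardiomyocytes. Nkx2-5 signal was 3.54, 3.13 and 3.27 in the control cultures and 3.58, 3.55 and 3.26 in the C3a cultures. C3a replicate 3 was as low as control replicate 3, and control replicate 1 was as high as the other C3a arrays. The log2 fold change of 0.15 had an interval from -0.20 to 0.49 (adjusted p = 0.775, limma). Dropping control replicate 1 gave 0.26, dropping C3a replicate 3 gave 0.25, and dropping control replicate 2 gave 0.058. A further Nkx2-5 probe gave 0.10, and the difference between the 2 probes stayed between 0.041 and 0.17 on all 6 arrays, so the spread of Nkx2-5 between arrays was read alike by both.

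TBX20 is a T-box factor that keeps up the programme of the mature cardiomyocyte. Tbx20 signal was -0.62, -0.81 and -0.22 in the control cultures and -0.026, -0.39 and 0.22 in the C3a cultures. The highest control, replicate 3, lay above the lowest C3a culture, replicate 2, so the groups overlapped. The mean was -0.55 ± 0.30 (SD, n = 3) without and -0.065 ± 0.31 (SD, n = 3) with C3a. The log2 fold change was 0.49 with a standard error of 0.20 and an interval from 0.0081 to 0.97. By limma the unadjusted p was 0.0471, at rank 1273 of the 23438 probes, and the adjusted p was 0.746. A two-sided exact permutation test over the 6 arrays gave p = 0.2 for Tbx20, where the smallest possible was 0.1.

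The Tbx20 values differed by replicate number as well as between the groups. Replicate 3 was the highest and replicate 2 the lowest in both groups, and the C3a array lay above the control array of the same number by 0.60, 0.42 and 0.44. With the replicate numbers as pairs, which lowers the residual spread, limma gave an unadjusted p of 0.0025 and an adjusted p of 0.221 for Tbx20. Leaving out an array gave log2 fold changes between 0.35 and 0.65. By limma, the unadjusted p of Tbx20 was 0.0930 when control replicate 1 was dropped and 0.145 when control replicate 2 was. It was 0.109 after dropping C3a replicate 1 and 0.154 after dropping C3a replicate 3. Without control replicate 3 the log2 fold change of Tbx20 was 0.65 with an unadjusted p of 0.0136 in limma, and without C3a replicate 2 it was 0.65 with 0.0173. Before scaling, Tbx20 intensity was 177, 210 and 230 units in the control cultures and 226, 220 and 241 units in the C3a cultures, and the log2 fold change of these values was 0.16. The median log2 fold change over all kept probes was -0.28 for such unscaled values.

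**Figure D2:**
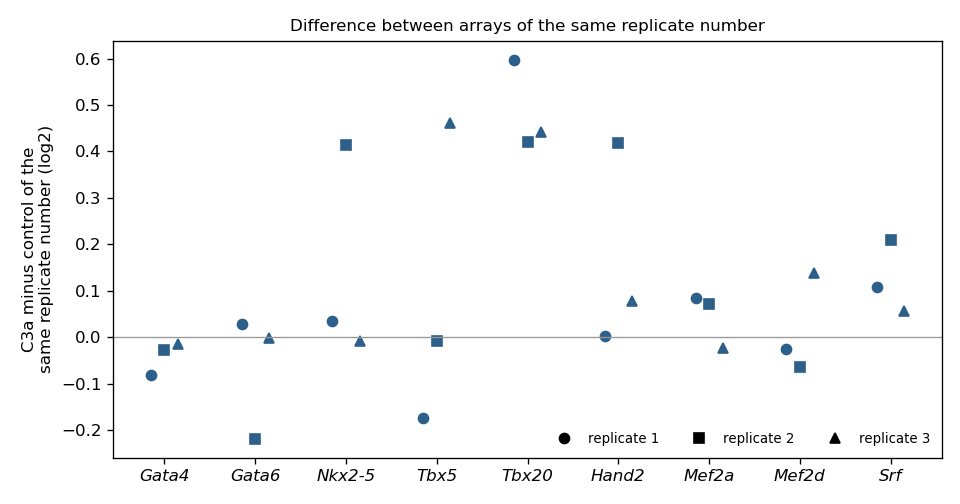
Difference in log2 signal between the C3a and the control array of the same replicate number (y axis) for each factor (x axis), with 1 symbol for each of the 3 numbers. Tbx20 lies between 0.42 and 0.60 for all 3, while Nkx2-5, Tbx5 and Hand2 each have a single difference above 0.4.

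TBX5, a T-box factor of the atria, the left ventricle and the conduction system, was dim. Tbx5 signal was -3.47, -3.38 and -3.80 in the control cultures and -3.64, -3.39 and -3.34 in the C3a cultures. These correspond to intensities between 18.5 and 35.2 units, and the error that the scanner software gives for a spot reached 54.4% of the signal, against 10% to 13.4% for the other factors. The groups overlapped over most of their range. Tbx5 gave a log2 fold change of 0.093, with an interval from -0.25 to 0.44 (adjusted p = 0.853, limma).

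HAND2 is a helix-loop-helix factor known for its part in right ventricular development. Hand2 signal was -0.49, -0.87 and -0.57 in the control cultures and -0.49, -0.45 and -0.50 in the C3a cultures. Control replicate 2 was the lowest, and control replicate 1 reached the C3a values. Hand2 gave a log2 fold change of 0.17, with an interval from -0.12 to 0.45 (adjusted p = 0.746, limma), and it was 0.054 without control replicate 2. A further Hand2 probe gave 0.038, and on C3a replicate 2 it lay 0.27 below the brighter probe, against differences of at most 0.084 on the other arrays.

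MEF2A is one of the MADS box factors that turn on muscle structural genes. Mef2a signal was -0.013, -0.040 and 0.061 in the control cultures and 0.071, 0.032 and 0.038 in the C3a cultures. The groups overlapped within a narrow span, and the residual SD was at percentile 1.59 of the kept probes. Mef2a gave a log2 fold change of 0.044, with an interval from -0.16 to 0.25 (adjusted p = 0.887, limma).

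MEF2D, a factor of the same family that relays stress signals in heart muscle, was read by 2 probes that came out differently. With the brighter probe, which stands for the gene, Mef2d signal was 4.14, 4.13 and 3.96 in the control cultures and 4.12, 4.07 and 4.10 in the C3a cultures. The C3a values lay inside the control range, and the log2 fold change was 0.016 (interval from -0.21 to 0.24, adjusted p = 0.967, limma). With the dimmer probe, Mef2d signal was 3.45, 3.21 and 3.49 in the control cultures and 3.69, 3.54 and 3.70 in the C3a cultures. All 3 C3a values of that probe lay above all 3 controls, with a log2 fold change of 0.26 (interval from -0.0046 to 0.53, adjusted p = 0.746, limma).

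The Mef2d probes were annotated to different transcript records of the gene, XM_006232771 for the brighter and NM_030860 for the dimmer. Their changes differed by 0.25, and a two-sided exact permutation test of that difference over the 6 arrays gave p = 0.2 for Mef2d, where the smallest possible was 0.1. The difference between the 2 probes on one array ran from 0.47 to 0.92 in the control cultures and from 0.39 to 0.53 in the C3a cultures. Averaging both probes gave a log2 fold change of 0.14 for Mef2d (adjusted p = 0.716, limma).

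**Figure D3:**
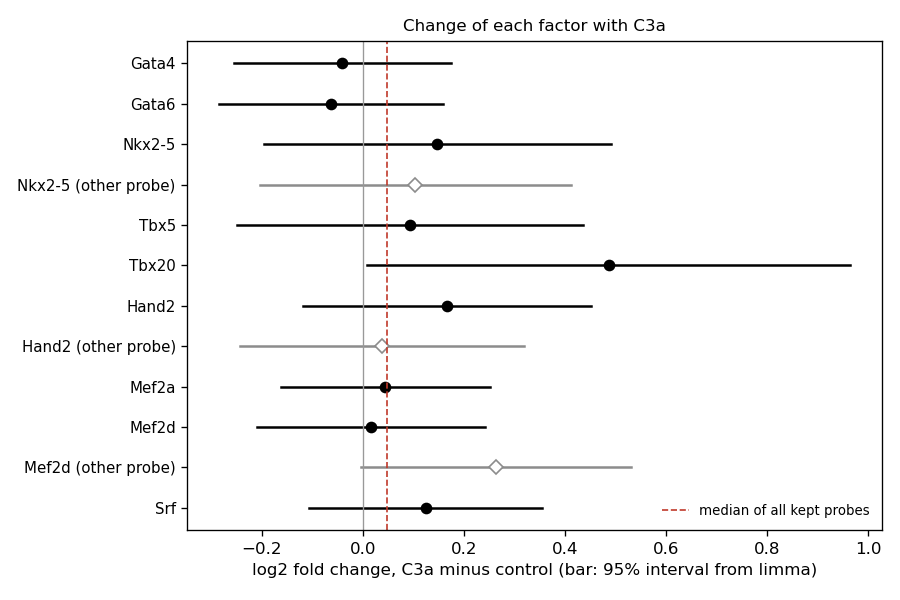
Log2 fold change, C3a minus control (x axis), with its 95% interval from limma for the brightest probe of each factor (filled) and the further probes of Nkx2-5, Hand2 and Mef2d (open); the dashed line is the median of all kept probes, 0.048. Every interval but that of the Tbx20 probe includes 0.

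SRF is the MADS box factor of growth-response, cytoskeletal and sarcomere genes, and its own gene holds the CArG boxes printed above. Srf signal was 4.87, 4.67 and 4.81 in the control cultures and 4.98, 4.88 and 4.87 in the C3a cultures. The highest control and the lowest C3a culture were level, and the C3a array was the higher in each pair of equal number, by 0.11, 0.21 and 0.055. Srf gave a log2 fold change of 0.12, with an interval from -0.11 to 0.36 (adjusted p = 0.752, limma), and it was 0.068 without control replicate 2. For the brightest probes, the intervals of the 8 factors other than Tbx20 ran no further than 0.49 upwards and -0.28 downwards, and that of the dimmer Mef2d probe reached 0.53.

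Partners, relatives and target genes of the factors were read from 4 lists drawn up from general knowledge. Of 17 partners and co-regulators, 11 had a kept probe, of which 0 passed the adjusted threshold and 0 an unadjusted p under 0.05 in limma. The FOG cofactors of GATA proteins gave log2 fold changes of 0.055 for Zfpm1 and 0.10 for Zfpm2. Myocd, the muscle co-activator of SRF, gave 0.15 and Hopx, an SRF inhibitor, 0.13. The class II deacetylases that hold MEF2 proteins in check gave 0.14 for Hdac4 and -0.10 for Hdac5, while no array read Hdac9 well above background. Tead1, a factor of muscle gene enhancers, gave 0.026. The lowest value of the list was -0.46 for Fhl2, an SRF-binding LIM protein (adjusted p = 0.746, limma). Mrtfa had no probe by this route.

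Of 20 other cardiac lineage factors, 13 had a kept probe, and 0 passed the adjusted threshold. At an unadjusted p under 0.05, Hand1, the relative of HAND2 known from the left ventricle, was higher and none was lower in limma. Over all kept probes 3.33% were higher and 2.5% lower at that threshold. Hand1 signal was -2.75, -2.83 and -2.98 in the control cultures and -2.62, -2.51 and -2.54 in the C3a cultures. All C3a values lay above all controls, with a log2 fold change of 0.30 (adjusted p = 0.746, limma). The Hand1 probe was well above background on only 2 of 3 control arrays. It met the filter through the C3a cultures alone, where it was higher, so this separation is a description only. Tbx3, a factor of the conduction system, gave 0.26, Irx4, a ventricular homeodomain factor, -0.013, and Hey2, a ventricular repressor, 0.47. The Hey2 probe was dim too, with 2 of 3 control arrays well above background and an adjusted p of 0.746 in limma. Hey2 likewise met the filter through the C3a cultures alone. Isl1, Tbx1 and Mesp1, which mark earlier progenitors, were not well above background on any array.

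Of 30 cardiac target genes, 28 had a kept probe, and all of these were well above background on all 6 arrays. In limma 0 passed the adjusted threshold and 0 an unadjusted p under 0.05. The log2 fold change was above 0 for 21 of the 28, beside 60.5% of the 10386 genes with a kept brightest probe. The median of the target genes was 0.11, beside 0.036 over those 10386 genes. Nppa and Nppb, the natriuretic peptides that GATA4, NKX2-5 and TBX5 control, gave -0.092 and 0.012. Myh6, Actc1 and Tnnt2, of the sarcomere, gave 0.22, 0.16 and 0.21, while Acta1, skeletal actin, and Actn2, the actinin of the Z-disc, had the lowest values of the list at -0.35 and -0.30. Of 20 growth-response and cytoskeletal targets of SRF, 18 had a kept probe and 0 passed the adjusted threshold. Flna, which encodes the actin cross-linker filamin A, was the 1 lower at an unadjusted p under 0.05 in limma, at -0.26, and none was higher. That threshold was met by 2.5% of all kept probes as lower and by 3.33% as higher. Fos gave 0.11 and Egr1 -0.11, both immediate early genes, and Acta2, of smooth muscle actin, gave 0.25. Fos was dim, with 2 of 3 control arrays well above background, and met the filter through the C3a cultures alone. Of the 18 kept genes, 15 were well above background on all 6 arrays.

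**Figure D4:**
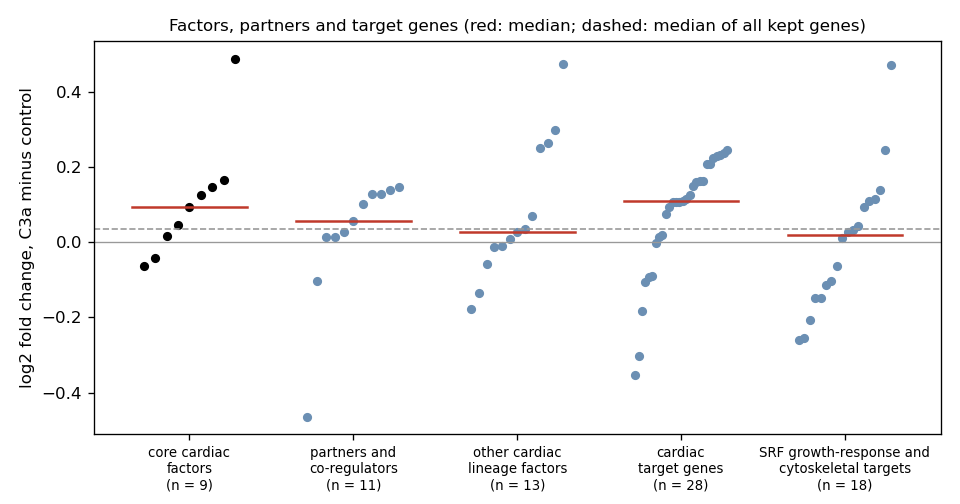
Log2 fold change, C3a minus control (y axis), for the 9 factors and for the genes of 4 lists with a kept probe (x axis, with their number); each point is a gene, red lines are medians and the dashed line is the median over all kept genes, 0.036. The medians of the 5 groups lie between 0.018 and 0.11, and each group holds genes on both sides of 0.

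For the labelled cell type, 8 of 8 cardiomyocyte marker genes were well above background on all 6 arrays. Their summed signal, in units of the 75th percentile, ran from 4197 to 5425 in the control cultures and from 5219 to 5891 in the C3a cultures. Such a sum is set mostly by the brightest genes. The log2 fold change was above 0 for 6 of the 8 and below 0 for Actn2 (-0.30) and Ryr2 (-0.11). Genes of other cells were read too, with 7 of 9 fibroblast genes well above background on all 6 arrays. Detection alone therefore does not set cardiomyocytes apart. In such bulk samples fewer cells of a type and less RNA per cell cannot be told apart. The fibroblast list, with 9 of 9 genes kept and 7 below 0, summed to between 98.7 and 112 without and between 97.7 and 114 with C3a. All these sums ran over every gene of a list with a probe, kept or not. The endothelial list (5 of 7 genes kept, 6 with a probe) summed to between 33.2 and 45.9 without and between 42.2 and 53.5 with C3a. Of its kept genes 4 were above 0 and 1 below. The macrophage list (3 of 7 kept, 7 with a probe) ran from 0.970 to 1.42 without and from 1.104 to 1.19 with C3a. Of the kept macrophage genes 2 were above 0 and 1 below, and no array read Mrc1 well above background. The smooth muscle and pericyte list (6 of 6 kept) ran from 15.0 to 18.1 and from 16.2 to 18.2, and the epicardial list (3 of 4 kept) from 3.07 to 4.33 and from 3.71 to 4.03. In limma 0 genes of these lists passed the adjusted threshold. An unadjusted p under 0.05 was found for Itgam, a macrophage integrin with a log2 fold change of 0.63, and Lum, a matrix protein of fibroblasts at -0.54 (adjusted p = 0.746 for both, limma). Over all kept probes 5.83% had such a p. Both were dim, with 2 of 3 control arrays well above background, and met the filter through the C3a cultures alone. The part of these cell types in the Tbx20 difference was not tested.

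The genes whose values ran most like those of a factor over the 6 arrays were found by the smallest root-mean-square difference after removing each gene's mean, among 10377 other genes. For Tbx20 this was Gzma, at 0.029 on the log2 scale, with a log2 fold change of its own of 0.51. It was Lmo7 for Gata4 (0.013), Armt1 for Gata6 (0.017), Endog for Nkx2-5 (0.021) and Gemin4 for Tbx5 (0.036). It was Pex16 for Hand2 (0.0053), Tmem167b for Mef2a (0.0059), Cd1d1 for Mef2d (0.023) and Apobec2 for Srf (0.012). With 6 values and this many genes, a close match is a description only.

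The direction of 8 of the 9 factors was the same under the 75th percentile, quantile normalization, the 75th percentile over detected probes and normexp background correction. The exception was Mef2d, whose value lay close to 0 in each. Leaving out normalization between arrays moved every probe by the same amount, -0.32 on the log2 scale, so that Nkx2-5, Tbx5, Hand2, Mef2a, Mef2d and Srf were below 0 there, while Gata4 and Gata6 stayed below 0 and Tbx20 above 0.

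**Figure D5:**
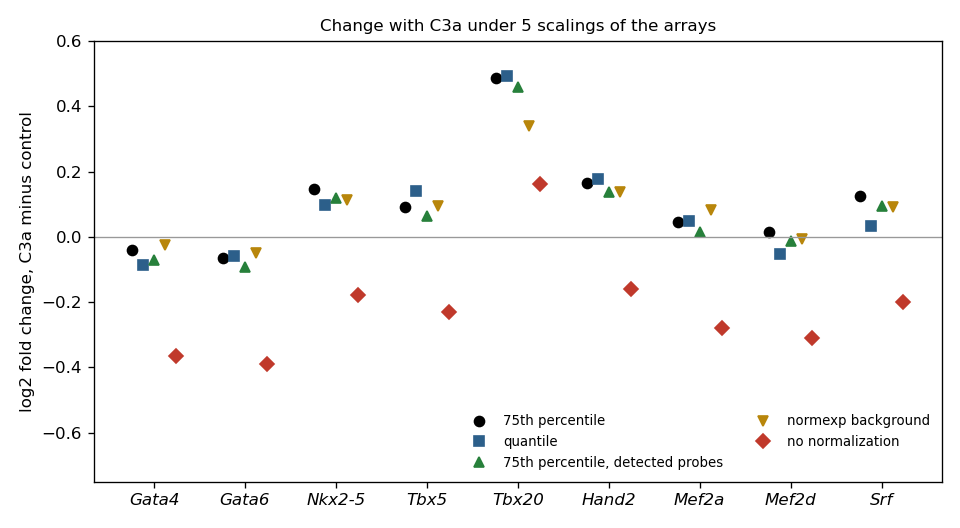
Log2 fold change of each factor, C3a minus control (y axis), under 5 scalings (symbols): the 75th percentile, quantile normalization, the 75th percentile over probes detected on all arrays, normexp background correction, and no normalization between arrays. Without normalization all factors are shifted by -0.32 and only Tbx20 stays above 0, while Mef2d changes side under each of the other scalings.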

How the data were processed

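The 6 samples, 3 control and 3 C3a, were grouped by their titles. The authors deposited spot intensity values from Agilent Feature Extraction 11.5.1.1, background-subtracted and detrended within each array by that software, and a table of log2 values for 36638 probes. The methods name GeneSpring but not the normalization. That log2 table differed from the intensity scaled to the 75th percentile of the array by a median of 0.0034, so it is not centred by gene; its column medians lay between -3.13 and -3.00.

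Control spots (4259 of 62976) and outlier spots were left out and spots of a probe averaged, giving 45598 probes, 45572 with a value on all 6 arrays. No spot was saturated. Accessions led to a gene symbol for 21102 probes (46.3%) in the RefSeq table of GRCr8; the array design is older, so no gene coordinates are printed. Promoter sequences are from RefSeq (GRCr8). Scaled log2 values (each array's 75th percentile subtracted) were compared by limma 3.58.1 in R 4.3.3 (two-sided, Benjamini-Hochberg) over the 23438 probes well above background (in at least 50% of spots) on all 3 arrays of a condition. This filter met 17519 probes in the controls and 23425 with C3a. limma was tested on simulated data. Exact permutation tests used scipy 1.17.1, figures matplotlib 3.10.9.

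The members and lists were chosen with earlier results of these data known. Named were all members, fixed partners and targets, up to 2 genes each way per list at an unadjusted p under 0.05, and the gene most like each member. Fhl2, Zfpm1, Isl1, Tbx1, Mesp1, Mrc1, Acta1, Actn2, Itgam and Lum were named after their values were seen. Replicate numbers were taken as pairs by correlation alone. Deviations from the group means correlated at 0.28, 0.32 and 0.31 for equal numbers and between -0.26 and -0.093 for others. Subtracting the group mean ties the values for unequal numbers to those for equal numbers, so they add no support. The records do not say what equal numbers share. All arrays shared a slide and a scan, so neither could be a block. Alternatives were other scalings, normexp (offset 50) on the median spot signal, other filters, the deposited table, the replicate block, the methods' test, another choice of probe and each array left out.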

Additional observations from a re-analysis of the deposited data

How the results depend on the processing

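No factor reached an adjusted p under 0.05 in any of 15 alternatives (0 in each). The 1 factor at an unadjusted p under 0.05, Tbx20, became 0 with quantile normalization, without normalization, with the percentile over detected probes, without a filter on dim probes and in the methods' test, and was 0 to 1 when each array was left out. The unadjusted p of Tbx20 was 0.0584, 0.503, 0.0686, 0.0922 and 0.119 in those 5 settings, from limma but for the last. Its log2 fold change there was 0.49, 0.16, 0.46, 0.49 and 0.49, so that it was smaller than the reported 0.49 by over 1.5 times only without normalization. The count of factors whose groups do not overlap, 0, became 1 without normalization (Gata6, lower). It was 1 with the percentile over detected probes and 1 in the deposited table (both Srf, higher). When each array was left out it was 0 to 4, as fewer arrays overlap less easily. It was 4 when control replicate 3 was dropped, 3 for C3a replicate 3 and 2 for control replicate 1. It was 1 each for C3a replicates 1 and 2. The share of all probes whose groups do not overlap was read in the main setting only, at 12.4%. The counts in the other settings have no such share beside them and are a description only. The log2 fold change turned without normalization for Nkx2-5 (-0.18), Tbx5 (-0.23), Hand2 (-0.16), Mef2a (-0.28), Mef2d (-0.31) and Srf (-0.20), as this setting moved every probe by -0.32. For Mef2d it also turned with quantile normalization (-0.053), with the percentile over detected probes (-0.012) and with normexp (-0.0067), and without an array it ran from -0.044 to 0.048. For Tbx5 it ran from -0.033 to 0.18. The other causes were not tested. The replicate block left 1 factor at an unadjusted p under 0.05 and 0 at an adjusted one, so it changed no call among the factors. Over all probes it raised the unadjusted counts from 780 higher and 587 lower to 1815 and 1371. Tbx5 is limited by its low signal over background, and its probe met the filter through the C3a cultures alone.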
